A study of Homo sapiens with 24 samples.

Results

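SUM149PT and SUM159PT are established human breast cancer cell lines that lack the hormone receptors of luminal tumours. SUM149PT was derived from an inflammatory breast carcinoma and SUM159PT from an anaplastic one. The comparison set 3 arrays of SUM149PT cells given DMSO, the vehicle, for 24 hours against 3 arrays of SUM159PT cells given DMSO for the same time, 6 of the 24 arrays in the series, chosen by their titles alone. Both lines were kept in the same F12 medium containing 10% FBS, insulin and hydrocortisone at 10 µg/ml each, EGF at 10 ng/ml, gentamicin at 0.5 mg/ml and 1% Penstrep. The remaining 18 arrays held the same lines exposed for 24 hours to AZD3965, which blocks the monocarboxylate carrier MCT1, HS578T cells given AZD3965 or DMSO in a DMEM medium, and SUM149PT cells carrying an MCT1 or scramble shRNA. The shRNA cells were selected for 5 days in puromycin at 2 µg/ml, and their arrays enter the pooled spread. The study asked whether MCT1 contributes to the glycolytic phenotype of breast cancer lines, and the vehicle arrays give the baseline of each line. Each line is 1 culture line, so a difference here is between these lines and not between classes of tumour.

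Epithelial cells adhere to each other through cadherins, claudins and desmosomes, rest on a laminin-rich basement membrane and express keratins, under transcription factors such as the grainyhead-like and OVOL proteins. In the epithelial-mesenchymal transition, repressors of the ZEB and SNAI families bind E-box motifs in epithelial promoters, and cells gain vimentin, fibrillar collagens and other mesenchymal products. Basal-like breast cancer lines commonly lie along this axis, with some fully epithelial and others largely mesenchymal in expression.

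RNA was hybridised to Affymetrix arrays, and the deposited values are MAS5 signals in linear units, scaled by the authors to 1 trimmed mean on every array. The median signal of the 6 arrays ran from 49.2 to 67.4 units and the actin 3' to 5' control ratio from 1.29 to 1.36. Of the other arrays that enter the pooled spread, scramble shRNA array 3 stood apart with an actin ratio of 53.8, and the counts without it are given at the end. Arrays of 1 line correlated at r of 0.979 to 0.985 across probe sets, and arrays of different lines at 0.911 to 0.917. Nothing in the labels ties the 3 arrays of a line to separate cultures, and the p-values therefore reflect array-to-array spread that may be technical only. Differences are given as SUM149PT minus SUM159PT of log2(signal + 16) with their standard errors from limma, and signals with standard deviations (n = 3 per line). The added 16 units damp noise and understate the differences of dim genes. No detection calls were used here, so signals of a few units cannot be told from background. In RNA from whole cultures, a gene in fewer cells and less RNA per cell cannot be told apart.

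The lines differed across most of the transcriptome. Of 14183 genes tested, 8370 (59.0%) passed a limma adjusted p under 0.05, 4201 (29.6%) higher and 4169 (29.4%) lower in SUM149PT. Because so many genes passed, the counts below also use a difference of at least 2-fold (1 on the log2 scale), which 3402 genes (24.0%) reached, 1849 (13.0%) higher and 1553 (10.9%) lower. A difference of 4-fold or more was reached by 801 higher and 552 lower genes, and one of 16-fold or more by 224 higher and 116 lower genes. In 9213 genes (65.0%) the 3 arrays of one line lay beyond all 3 of the other. At the level of single probe sets, 14543 of 27110 (53.6%) passed. The median difference of all genes was -0.02. Of 841 genes on 37 lists for pathways and cell types, 750 were named by a probe set and 664 passed the filter on low values. A gene passes that filter on its mean over both lines, so one that is bright in a single line passes only if it differs, and list counts cover the tested members alone. The lists were chosen with earlier results of these data known, so their counts beside the shares of all genes are descriptions. With 59.0% of all genes passing, a count of calls near that share says little about a list.

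The largest difference with the offset of 16 was in CDH1, which encodes E-cadherin, the adhesion molecule of epithelial junctions. Its signals were 9411, 8671 and 8233 units in SUM149PT, against 3.62, 4.02 and 2.95 units in SUM159PT. The log2 difference was 8.81 ± 0.15 (limma adjusted p = 1.41e-22), and in HS578T, the third line, CDH1 averaged 4.26 units under DMSO. The SUM159PT signals cannot be told from background, so the size depends on the offset (10.92 with an offset of 1 and 7.03 with 64), and it was 5.62 with the mean of all probe sets. CLDN7, a tight junction claudin, had signals of 7047, 7861 and 6219 units in SUM149PT, against 3.12, 5.24 and 18.9 units in SUM159PT, and differed by 8.18 ± 0.21. EPCAM, an epithelial cell adhesion molecule, had 14445, 14913 and 15542 units in SUM149PT, against 40.5, 27.9 and 95.4 units in SUM159PT (7.845 ± 0.22). In all these genes every SUM149PT array stood far above every SUM159PT array. CDH3, which encodes P-cadherin, measured 4341 ± 391 units in SUM149PT and 5.83 ± 2.04 in SUM159PT. The serine protease inhibitor gene SPINT2 and its target protease gene ST14, which encodes matriptase, were higher in SUM149PT by 8.004 ± 0.30 and 5.96 ± 0.27. MAL2 and RAB25, which serve vesicle traffic to the apical and recycling compartments, were higher by 7.69 ± 0.13 and 6.32 ± 0.13.

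Of 32 tested genes on the list for epithelial adhesion and surface proteins, 31 were higher in SUM149PT (28 of them 2-fold or more) and 0 were lower, with a median difference of 3.62. Tight junction genes were uneven in size of difference. OCLN, which encodes occludin, was higher by 3.95 ± 0.12, MARVELD2, which encodes tricellulin, by 3.47 ± 0.15, CLDN4 by 4.34 ± 0.22 and CLDN1 by 0.90 ± 0.15. CRB3, a determinant of apical polarity, was higher by 3.62 ± 0.27. Desmosome genes did not all follow. The plaque genes DSP and JUP measured 8134 ± 1015 units in SUM149PT and 447 ± 18.5 in SUM159PT, and 3768 ± 443 units in SUM149PT and 294 ± 51.9 in SUM159PT, and differed by 4.13 ± 0.10 and 3.62 ± 0.15. The desmosomal cadherin genes DSC2, DSC3 and DSG3 were higher by 4.92 ± 0.18, 3.865 ± 0.21 and 4.05 ± 0.28. DSG2, another desmosomal cadherin gene, measured 5202 ± 175 units in SUM149PT and 5142 ± 436 in SUM159PT, a difference of 0.02 ± 0.11 (adjusted p = 0.9). The 2 lines thus overlapped in DSG2 signal while lying far apart in CDH1. PERP, another desmosome-associated gene, was bright in both lines (11928 ± 383 units in SUM149PT and 8872 ± 963 in SUM159PT).

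**Figure D1:**
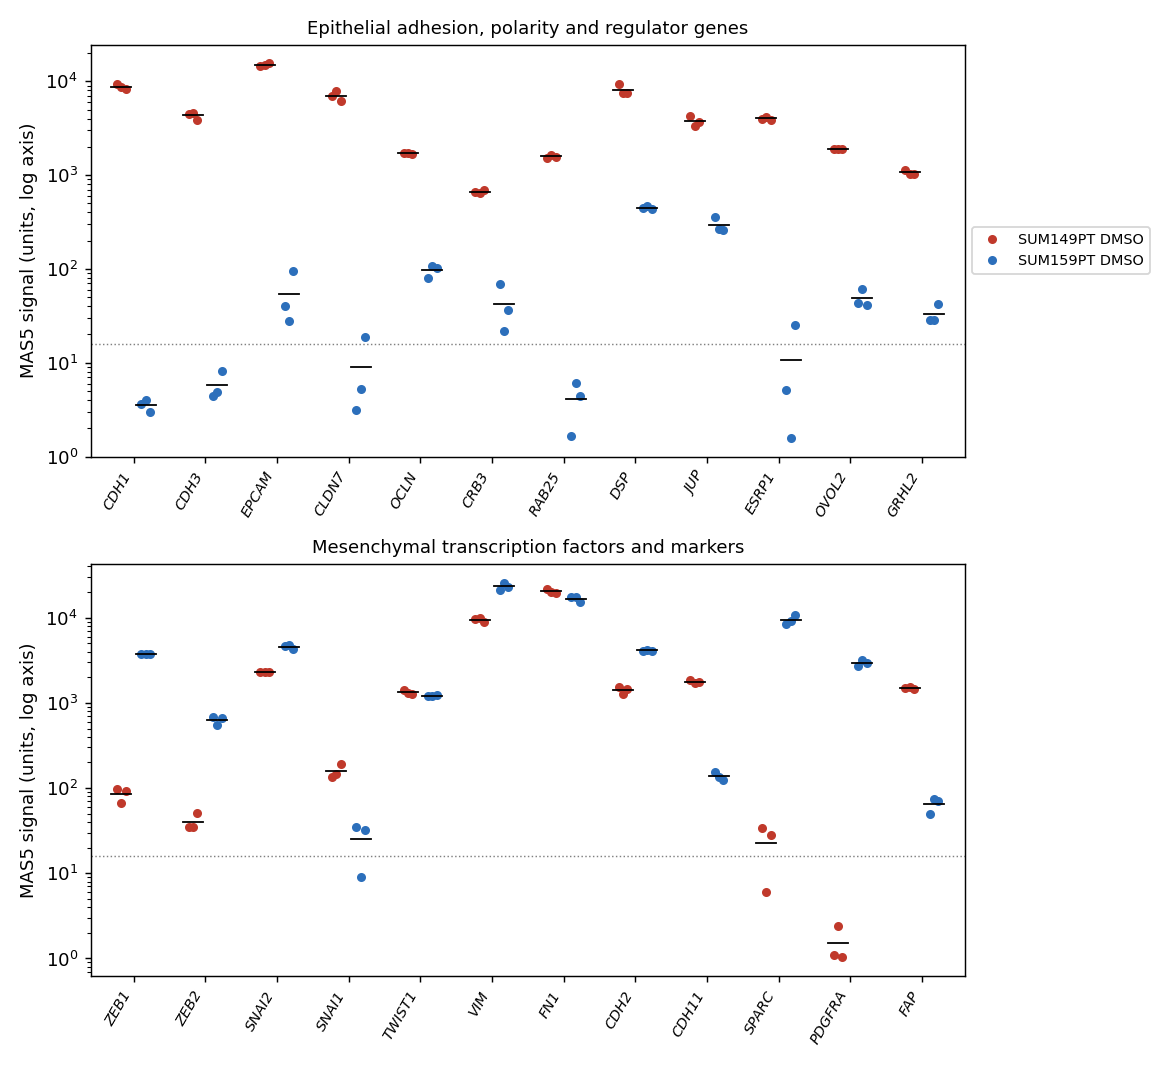
MAS5 signal (log axis) of 12 epithelial genes (top) and 12 mesenchymal genes (bottom) on the 3 SUM149PT arrays (red, left of each pair) and 3 SUM159PT arrays (blue, right), with the line mean as a black bar and the offset of 16 units dotted. All epithelial genes shown are separated between the lines, while TWIST1 lies close in both lines and CDH11, SNAI1 and FAP are higher in SUM149PT, opposite to ZEB1, SPARC and PDGFRA.

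The regulators of the epithelial state moved with the adhesion genes. Of 18 tested genes on the list of epithelial transcription and splicing regulators, 15 were higher in SUM149PT, each by 2-fold or more. Of the rest, 1 was lower and 2 did not pass, and the median was 2.68. Those higher include ELF3, which is also on the adhesion list, and ZNF165, a zinc finger gene whose place among epithelial regulators was not checked. ESRP1, a splicing factor that sets epithelial exon choice, had signals of 4009.6, 4149 and 3896 units in SUM149PT, against 5.07, 1.58 and 25.1 units in SUM159PT. Its difference was 7.35 ± 0.23. EHF, an epithelial ETS factor, measured 5694 ± 458 units in SUM149PT and 27.3 ± 12.9 in SUM159PT (7.08 ± 0.23). OVOL2 and GRHL2, which maintain epithelial identity, were higher by 4.91 ± 0.14 and 4.48 ± 0.31, and RBM47, an RNA-binding protein of epithelia, by 3.36 ± 0.17. TFAP2C and TFAP2A, AP-2 factors of the mammary and epidermal lineages, were higher by 3.16 ± 0.10 and 2.98 ± 0.07. The luminal factors GATA3 and FOXA1 were higher by 1.65 ± 0.12 and 1.74 ± 0.28, and FOXA1 measured 213 ± 53.2 units in SUM149PT and 51.8 ± 10.4 in SUM159PT. KLF5 (0.39 ± 0.27, adjusted p = 0.227, but 0.035 with only the 6 DMSO arrays fitted) and SPDEF (0.48 ± 0.44, 0.368) did not pass, and XBP1, the factor of the unfolded protein response and of secretory cells, was lower in SUM149PT (-0.63 ± 0.10). MIR200CHG, the host transcript of the miR-200c and miR-141 microRNAs that target ZEB messages, measured 199 ± 18.4 units in SUM149PT and 36.3 ± 18.3 in SUM159PT (2.09 ± 0.28). This gene was chosen after its values were seen, and the microRNAs themselves were not measured.

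The transcription factors of the mesenchymal state did not move as a block. ZEB1, a repressor of CDH1 and other epithelial genes, had signals of 98.3, 66.9 and 93.1 units in SUM149PT, against 3748, 3748 and 3794 units in SUM159PT, a difference of -5.22 ± 0.24 (adjusted p = 3.88e-15). ZEB2 measured 40.01 ± 9.05 units in SUM149PT and 625 ± 71.2 in SUM159PT (-3.52 ± 0.22). Every SUM149PT array lay far below every SUM159PT array in both ZEB genes. SNAI2, which encodes Slug, was present in both lines and lower in SUM149PT at -0.99 ± 0.07 (2304 ± 17.9 units in SUM149PT and 4589 ± 230.0 in SUM159PT). TWIST2 and FOXC2 were lower at -1.76 ± 0.09 and -2.96 ± 0.17, and PRRX1, which was bright in HS578T at 8186 units, was lower in SUM149PT (41.2 ± 4.2 units in SUM149PT and 251 ± 80.97 in SUM159PT). TWIST1 measured 1338 ± 83.6 units in SUM149PT and 1213 ± 20.6 in SUM159PT and did not pass (0.14 ± 0.12, adjusted p = 0.36), and SNAI1 was higher in SUM149PT (2.13 ± 0.43). TWIST1, SNAI2 and SNAI1 signal was therefore found on the same SUM149PT arrays as CDH1 and EPCAM signal.

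Of 27 tested mesenchymal markers, 18 were lower in SUM149PT (14 by 2-fold or more), 5 were higher and 4 did not pass, with a median of -1.16. SPARC, a matricellular glycoprotein gene, had signals of 34.5, 5.99 and 28.00 units in SUM149PT, against 8329.8, 9143 and 10722 units in SUM159PT (-8.001 ± 0.23). PDGFRA, the receptor for platelet-derived growth factors of mesenchymal cells, had 1.11, 2.4 and 1.03 units in SUM149PT, against 2692, 3179 and 2979.7 units in SUM159PT (-7.40 ± 0.16). Both genes were near the bottom of the scale on every SUM149PT array. VIM, which encodes vimentin, was bright in both lines and lower in SUM149PT at -1.30 ± 0.12 (9516 ± 537 units in SUM149PT and 23441 ± 2174 in SUM159PT). CDH2, which encodes N-cadherin, was lower at -1.53 ± 0.09 but still measured 1428 ± 124 units in SUM149PT and 4134 ± 89.3 in SUM159PT. NT5E, a surface nucleotidase used as a mesenchymal stromal marker, and S100A4, a calcium-binding protein tied to motility, were lower at -2.67 ± 0.13 and -2.86 ± 0.10. Against this direction, CDH11, the mesenchymal cadherin-11 gene, was higher in SUM149PT with 1849, 1717 and 1778 units in SUM149PT, against 153, 134 and 124 units in SUM159PT (3.56 ± 0.10). FAP, a fibroblast activation protease gene, was also higher (1506 ± 29.02 units in SUM149PT and 65.2 ± 13.6 in SUM159PT, 4.24 ± 0.12), as was the collagen cross-linking oxidase gene LOX (1.69 ± 0.11). FN1, which encodes fibronectin, differed by 0.28 ± 0.11 in the probe set used, while its 7 probe sets ran from -0.71 to 1.58. The FN1 call was lost without SUM149PT array 1 or 2 or SUM159PT array 3 (0.22 to 0.29), and with median centring (0.30). CDH1, the tested claudins and the ZEB genes differed in the direction that names SUM149PT epithelial and SUM159PT mesenchymal-like. CDH11, FAP, LOX and SNAI1 ran the other way. CDH1 and CLDN7 were dim in SUM159PT and passed the filter through SUM149PT, so their direction is a description and supports nothing.

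The promoter windows of epithelial genes were searched for CACCTG on either strand (CAGGTG on the other), the E-box core that ZEB and SNAI proteins bind. Promoters are from RefSeq on GRCh38.p14 and run from 250 bases before to 50 after the gene's start. The motif was present in 5625 of 27305 promoters (20.6%), in 2114 of 11407 promoters of tested genes (18.5%) and in 11 of the 22 tested epithelial adhesion and surface genes with an entry (50%). It was in 2 of 12 epithelial transcription and splicing regulators (16.7%) and in 5 of 11 NF-kappaB feedback genes (45.5%), so a high share was not limited to the adhesion genes. Among genes 2-fold or more higher in SUM149PT 369 of 1449 windows (25.5%) held it, and among those 2-fold or more lower 192 of 1238 (15.5%). These shares are descriptions made after the expression values were seen, and a match is not evidence of binding. CRB3 at chr19:6464021-6464320 on the plus strand held 5 matches and RAB25 at chr1:156060910-156061209 on the plus strand held 2, at -41 and 38 from the start. OCLN at chr5:69492297-69492596 on the plus strand held 1, at -33. These windows are shown, with matches in capitals, as examples that hold the motif, and the window of CLDN7, which differed more than any of them, held 0 matches.
CRB3: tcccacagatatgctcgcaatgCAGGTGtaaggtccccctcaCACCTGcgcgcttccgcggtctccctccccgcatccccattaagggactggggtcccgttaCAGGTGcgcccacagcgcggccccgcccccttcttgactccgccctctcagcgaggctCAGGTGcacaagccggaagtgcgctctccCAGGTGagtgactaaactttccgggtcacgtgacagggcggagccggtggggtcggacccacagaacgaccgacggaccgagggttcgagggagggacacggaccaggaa
RAB25: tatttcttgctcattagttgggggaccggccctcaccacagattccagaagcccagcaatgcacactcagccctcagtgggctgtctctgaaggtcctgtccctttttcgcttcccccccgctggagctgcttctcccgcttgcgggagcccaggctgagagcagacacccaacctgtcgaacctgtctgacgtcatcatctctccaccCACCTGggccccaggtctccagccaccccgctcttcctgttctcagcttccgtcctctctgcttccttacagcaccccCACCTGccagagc
OCLN: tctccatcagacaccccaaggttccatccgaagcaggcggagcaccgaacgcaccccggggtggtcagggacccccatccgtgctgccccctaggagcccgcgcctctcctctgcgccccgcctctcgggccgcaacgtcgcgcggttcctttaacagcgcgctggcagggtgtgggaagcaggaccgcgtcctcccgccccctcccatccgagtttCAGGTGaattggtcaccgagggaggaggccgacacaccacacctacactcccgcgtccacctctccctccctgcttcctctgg

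Keratins are the intermediate filament proteins of epithelia. Of 10 tested keratin genes, 9 were higher in SUM149PT (7 by 2-fold or more), none was lower and 1 did not pass, with a median of 1.47. KRT19, a luminal keratin gene, had signals of 4118, 4359 and 4357 units in SUM149PT, against 1.35, 1.99 and 2.14 units in SUM159PT (7.91 ± 0.10). The basal keratin gene KRT5 measured 2029 ± 73.3 units in SUM149PT and 25.9 ± 11.6 in SUM159PT (5.65 ± 0.31), and the stress-inducible KRT16 differed by 4.48 ± 0.30. KRT14, the basal partner of KRT5, was higher in SUM149PT (234 ± 9.29 units in SUM149PT and 9.49 ± 9.08 in SUM159PT). The simple epithelial keratin genes KRT18, KRT8 and KRT7 were bright in both lines, with differences of 1.09 ± 0.09, 1.20 ± 0.17 and 0.52 ± 0.11. KRT7 measured 23731 ± 1770.5 units in SUM149PT and 16571 ± 859 in SUM159PT, against 188 in HS578T. SUM159PT thus had simple keratin signal, while every SUM159PT array was far below every SUM149PT array in KRT19.

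On the list of S100, annexin and cornified envelope genes, 14 of 20 tested were higher (13 by 2-fold or more) and 1 lower, with a median of 2.22. The cornified envelope genes SPRR1A (-0.38 ± 0.29) and SPRR3 (0.23 ± 0.37) did not pass. LCN2, which encodes the iron-sequestering protein lipocalin-2, had signals of 14323, 16290.0 and 14506 units in SUM149PT, against 24.7, 19.8 and 70.3 units in SUM159PT (8.23 ± 0.28). The calprotectin subunit genes S100A9 and S100A8 were higher in SUM149PT by 8.18 ± 0.24 and 7.62 ± 0.29. PI3 and SLPI, which encode elafin and a related leukocyte protease inhibitor, were higher by 8.115 ± 0.16 and 5.75 ± 0.20. S100P, S100A14 and S100A7 differed by 7.185 ± 0.17, 5.40 ± 0.34 and 4.73 ± 0.21, whereas S100A6 (-0.13 ± 0.10) and S100A16 (0.07 ± 0.12) were bright in both lines and did not pass. S100A10 was the member called lower (-0.26 ± 0.09), a call lost without SUM149PT array 1 (-0.20) or SUM159PT array 1 (-0.23), or with median centring (-0.25). Among 10 tested mucin and secretory genes, 5 were higher and 1 was lower, a share called of 60% beside 59.0% of all genes. The complement genes C3 and CFB were higher by 4.89 ± 0.18 and 4.16 ± 0.17, and WFDC2, a secreted whey acidic protein gene, by 6.45 ± 0.15. MUC15, a membrane mucin gene, ran the other way (8.11 ± 7.91 units in SUM149PT and 482 ± 14.1 in SUM159PT, -4.41 ± 0.31).

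Chemokine and cytokine genes formed another group of large differences. Of 27 tested, 21 were higher in SUM149PT (20 by 2-fold or more), 2 were lower and 4 did not pass, with a median of 3.43. CXCL1, a chemokine for neutrophils, had signals of 30196, 34437 and 29654 units in SUM149PT, against 137, 188 and 119.7 units in SUM159PT (7.60 ± 0.14, adjusted p = 3.01e-22). Its relatives CXCL3 and CXCL2 differed by 6.625 ± 0.17 and 4.30 ± 0.15, and CXCL8, which encodes interleukin-8, by 3.53 ± 0.19 (23552 ± 586 units in SUM149PT and 2029 ± 192 in SUM159PT). The sequences of CXCL1, CXCL2 and CXCL3 are closely related, so their probe sets may share signal. The interleukin-1 genes IL1B and IL1A measured 9553 ± 781 units in SUM149PT and 80.9 ± 3.19 in SUM159PT, and 4579 ± 259.6 units in SUM149PT and 60.5 ± 3.84 in SUM159PT. They were higher in SUM149PT by 6.62 ± 0.18 and 5.91 ± 0.19, and their antagonist IL1RN by 3.43 ± 0.25. CCL20, a ligand of CCR6 on lymphocytes and dendritic cells, was higher by 4.50 ± 0.16. IL33, an alarmin, differed by 6.46 ± 0.25, the granulocyte factor CSF3 by 5.29 ± 0.26, the gp130 ligands LIF, IL11 and IL6 by 4.63 ± 0.28, 3.42 ± 0.15 and 3.14 ± 0.14, and TNF by 4.13 ± 0.20. The members called lower were CSF1, the macrophage growth factor (426 ± 46.4 units in SUM149PT and 1403 ± 61.8 in SUM159PT, -1.69 ± 0.13), and IL7R (-1.41 ± 0.15). IL18 was present in both lines (2553 ± 195 units in SUM149PT and 2309 ± 202 in SUM159PT) and did not pass (adjusted p = 0.4).

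**Figure D2:**
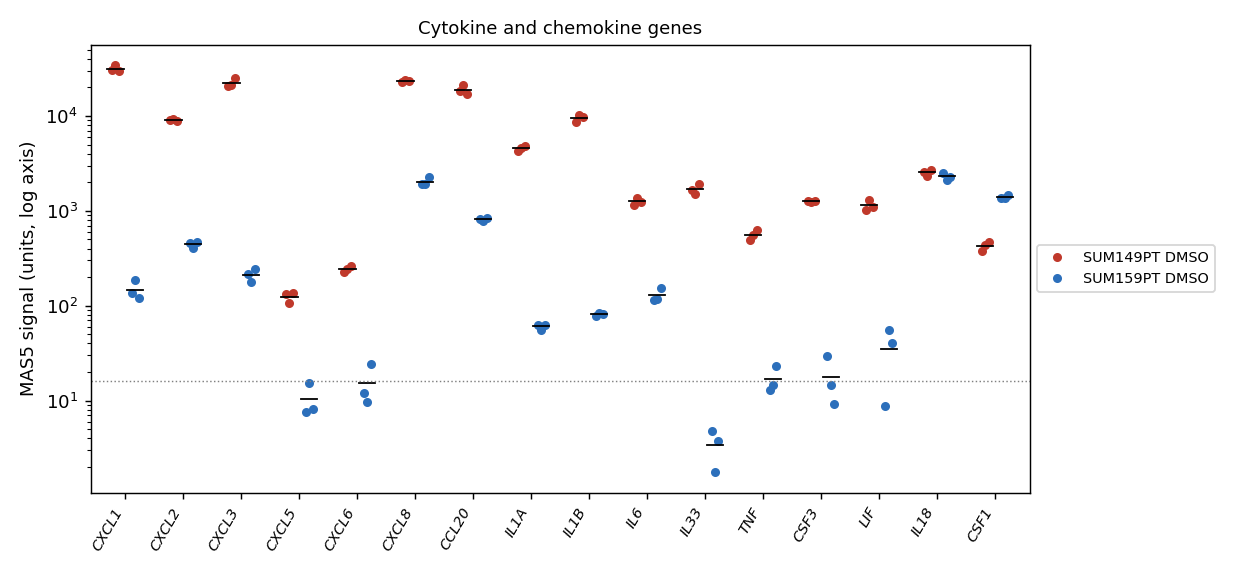
MAS5 signal (log axis) of 16 cytokine and chemokine genes on the 3 SUM149PT arrays (red, left of each pair) and 3 SUM159PT arrays (blue, right), with line means as bars and the offset of 16 units dotted. All but IL18 and CSF1 lie higher on every SUM149PT array, and CSF1 lies higher on every SUM159PT array.

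The promoters of the CXCL genes on chromosome 4 were searched for GGAATTTCC, a form of the NF-kappaB site, on either strand. It was found in 129 of 27305 promoters (0.472%). Of the 20 tested cytokine genes with an entry 7 held it (35%), namely CXCL1, CXCL2, CXCL3, CXCL5, CXCL6, CXCL8 and CXCL10, and each of these 7 was higher in SUM149PT by 2-fold or more. That was true of 16 of the 20 genes, with or without the motif. Among genes 2-fold or more higher in SUM149PT 23 of 1449 windows held it (1.59%), and among those 2-fold or more lower 4 of 1238 (0.323%). The CXCL genes arose by duplication, so their promoters are not independent, and the motif was chosen after the values were seen. Relative to the start, the match began at -78 in CXCL1 (chr4:73869143-73869442, plus strand), -77 in CXCL2 (chr4:74099146-74099445, minus strand), -78 in CXCL3 (chr4:74038640-74038939, minus strand) and -91 in CXCL8 (chr4:73740319-73740618, plus strand). The windows are shown with the match in capitals because these genes are neighbours in the cluster and all were higher in SUM149PT.
CXCL1: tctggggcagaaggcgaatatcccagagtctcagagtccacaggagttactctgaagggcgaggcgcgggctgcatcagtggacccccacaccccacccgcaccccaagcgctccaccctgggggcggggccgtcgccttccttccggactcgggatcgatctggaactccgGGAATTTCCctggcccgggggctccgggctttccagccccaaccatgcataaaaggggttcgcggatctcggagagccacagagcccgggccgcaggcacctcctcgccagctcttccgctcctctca
CXCL2: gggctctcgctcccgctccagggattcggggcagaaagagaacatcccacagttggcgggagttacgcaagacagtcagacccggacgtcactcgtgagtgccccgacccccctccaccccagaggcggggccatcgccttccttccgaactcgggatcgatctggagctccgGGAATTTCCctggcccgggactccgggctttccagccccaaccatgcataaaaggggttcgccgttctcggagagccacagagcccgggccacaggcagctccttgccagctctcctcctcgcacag
CXCL3: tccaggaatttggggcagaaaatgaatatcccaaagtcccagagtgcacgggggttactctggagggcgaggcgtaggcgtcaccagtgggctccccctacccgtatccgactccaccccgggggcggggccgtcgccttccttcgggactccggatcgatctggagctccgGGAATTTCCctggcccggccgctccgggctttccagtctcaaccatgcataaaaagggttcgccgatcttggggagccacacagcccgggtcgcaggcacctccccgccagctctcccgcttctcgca
CXCL8: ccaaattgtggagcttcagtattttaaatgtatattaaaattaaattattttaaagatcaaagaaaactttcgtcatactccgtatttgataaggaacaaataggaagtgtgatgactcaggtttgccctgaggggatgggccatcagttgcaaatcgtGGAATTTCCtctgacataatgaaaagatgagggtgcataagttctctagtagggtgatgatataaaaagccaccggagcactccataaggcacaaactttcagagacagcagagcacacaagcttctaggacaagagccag

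Feedback genes of NF-kappaB signalling were higher in SUM149PT in 8 of 12 tested, 7 of them by 2-fold or more, with none lower (1 without SUM159PT array 2) and a median of 1.20. The share called was 66.7%, beside 59.0% of all genes (29.6% higher). ICAM1, an adhesion molecule induced by the pathway, was higher by 2.89 ± 0.22, and the deubiquitinases TNFAIP3 and CYLD, which restrain it, by 1.79 ± 0.14 and 2.19 ± 0.10. NFKBIA, the inhibitor that holds the factor in the cytoplasm, measured 7351 ± 887 units in SUM149PT and 2963 ± 5.2 in SUM159PT (1.30 ± 0.11), while NFKB1 itself differed at -0.01 ± 0.09 (adjusted p = 0.924). Interferon-stimulated and antigen presentation genes were not shifted in the same way. Of 34 tested, 11 were higher, 8 lower and 15 did not pass (3 and 2 by 2-fold or more), with a median of 0.16. The share called was 55.9%, beside 59.0% of all genes. ISG15 and ISG20 were higher by 1.73 ± 0.09 and 2.50 ± 0.17, IFI44 was lower at -1.69 ± 0.12, and the class I genes HLA-B and HLA-C were lower at -0.72 ± 0.09 and -0.51 ± 0.10. NLRC5, the transactivator of class I genes, was also lower (-1.32 ± 0.23), while B2M (-0.16 ± 0.09) did not pass.

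Matrix genes differed in both directions. Of 30 tested, 13 were higher and 13 lower in SUM149PT, 8 and 11 by 2-fold or more. LAMB3, a chain of the epithelial laminin-332, had signals of 18215, 21381 and 17921 units in SUM149PT, against 960.1, 1017 and 1096 units in SUM159PT (4.20 ± 0.14). The basement membrane collagen genes COL4A2 and COL4A1 were higher by 2.39 ± 0.09 and 1.46 ± 0.10. By contrast the fibrillar collagen genes COL5A2, COL5A1 and COL1A1 were lower at -5.655 ± 0.13, -4.03 ± 0.18 and -3.31 ± 0.18. COL1A1 measured 1745 ± 157 units in SUM149PT and 17366 ± 479 in SUM159PT, and its partner chain gene COL1A2 had 30.8, 16.7 and 38.7 units in SUM149PT, against 74.5, 24.7 and 114 units in SUM159PT. COL1A2 did not pass (-0.84 ± 0.40, adjusted p = 0.0746), though it did without SUM159PT array 2 (-1.31), and it averaged 28585 units in HS578T. COL6A3, the largest type VI chain gene, was lower in SUM149PT at -2.65 ± 0.11, whereas COL6A1 was higher by 0.73 ± 0.12. The fibulin gene FBLN1, the proteoglycan gene SPOCK1 and the microfibril gene FBN1 were lower at -4.95 ± 0.29, -3.89 ± 0.15 and -2.84 ± 0.18. BGN, another proteoglycan gene, was higher by 2.59 ± 0.21 (166 ± 7.04 units in SUM149PT and 16.1 ± 12.3 in SUM159PT).

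Among 15 tested integrin genes, 4 were higher and 6 lower, 2 and 4 by 2-fold or more. The count of 4 higher was 2 without SUM149PT array 1, SUM159PT array 1 or SUM159PT array 2. ITGB8, an activator of latent TGF-beta, was higher in SUM149PT by 3.64 ± 0.23. The fibronectin receptor chain gene ITGA5 was lower at -2.57 ± 0.11 and the collagen receptor chain gene ITGA10 at -4.26 ± 0.19, while ITGA6 (0.03 ± 0.16) and ITGAV (-0.15 ± 0.10) did not pass. Protease systems differed in composition. In SUM149PT, MMP9, a gelatinase, was higher by 3.55 ± 0.15, and PLAU and PLAUR, the urokinase activator and its receptor, by 3.77 ± 0.10 and 1.90 ± 0.06. MMP2, the other gelatinase, had signals of 305, 464 and 435 units in SUM149PT, against 4381, 4115 and 4041 units in SUM159PT (-3.35 ± 0.11). The interstitial collagenase gene MMP1, the metalloprotease gene ADAM12 and the inhibitor genes TIMP3 and TIMP2 were lower at -3.22 ± 0.26, -4.58 ± 0.23, -3.95 ± 0.26 and -1.95 ± 0.09. Over the 23 tested protease and inhibitor genes, 10 were higher and 8 lower (78.3% called, beside 59.0% of all genes). Of 23 tested YAP and TAZ target and smooth muscle genes, 13 were lower and 4 higher (73.9% called), with a median of -0.34. CCN2, a secreted matricellular target of YAP, and TPM1, a tropomyosin, were lower at -2.67 ± 0.13 and -2.285 ± 0.07, and CAVIN2, a caveola coat gene, at -6.21 ± 0.24 (1.65 ± 1.79 units in SUM149PT and 1297 ± 169 in SUM159PT). TAGLN (0.11 ± 0.37) did not pass in the probe set used, and did at 0.69 in the probe set of highest mean over 24 arrays. On the list of genes associated with inflammatory breast cancer, 3 of 13 tested were higher and 7 lower (76.9% called). The members called higher were CDH1 (8.81), RARRES1 (7.72) and RHOC. RHOC, a motility GTPase, was higher by 0.27 ± 0.11. That call was lost without SUM149PT array 2 (0.23), SUM159PT array 2 (0.27) or SUM159PT array 3 (0.22), or with median centring (0.29). Its relative RHOB was lower at -2.45 ± 0.10. CAV1, which encodes caveolin-1, was lower at -1.20 ± 0.07 (11891 ± 112 units in SUM149PT and 27352 ± 1252 in SUM159PT).

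Receptor and ligand genes of the EGF family differed in 5 higher and 3 lower of 10 tested. ERBB3, a kinase-impaired receptor, measured 1005 ± 49.6 units in SUM149PT and 19.6 ± 5.54 in SUM159PT (4.85 ± 0.23), and EGFR was higher by 1.80 ± 0.09 (2919 ± 47.3 units in SUM149PT and 832 ± 82.1 in SUM159PT). Its ligand genes TGFA and EREG were higher by 4.23 ± 0.20 and 1.28 ± 0.15, whereas NRG1, a ligand of ERBB3 and ERBB4, was lower at -1.85 ± 0.15 and ERBB2 at -0.78 ± 0.15. The receptor gene ERBB3 and its ligand gene NRG1 thus ran in opposite directions. Of 30 other receptor tyrosine kinase and ligand genes, 13 were higher and 12 lower. ROR2, a WNT5A receptor, was higher by 3.88 ± 0.18 and its relative ROR1 lower at -4.39 ± 0.15. MST1R, FGFR4 and EFNA1 were higher by 3.76 ± 0.29, 3.41 ± 0.27 and 4.23 ± 0.14, while FGFR1, EPHA4 and AXL were lower at -2.87 ± 0.13, -4.17 ± 0.21 and -1.79 ± 0.07. The insulin receptor gene INSR measured 43.6 ± 14.6 units in SUM149PT and 389.7 ± 27.5 in SUM159PT (-2.79 ± 0.27) and the related IGF1R was higher (1.48 ± 0.17), in cells that both grew with insulin. Of 13 tested IGF binding protein and IGF signalling genes, 7 were lower and 2 higher (69.2% called, beside 59.0% of all genes). IGFBP4, an IGF-binding inhibitor, was lower at -3.08 ± 0.13.

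TGF-beta and BMP pathway genes were higher in 16 and lower in 7 of 27 tested. The activin subunit gene INHBA had signals of 3884, 4003 and 3459 units in SUM149PT, against 32.4, 23.7 and 26.5 units in SUM159PT (6.45 ± 0.12). TGFB2 was higher by 4.15 ± 0.10, and BMP2 and BMP4 by 3.57 ± 0.14 and 4.15 ± 0.16. The BMP antagonist GREM1 was higher by 5.31 ± 0.23 and the HLH inhibitor ID4 by 5.32 ± 0.19. The receptor genes TGFBR2 and TGFBR3 were lower at -1.74 ± 0.07 and -2.24 ± 0.13, and TGFBR1 was higher by 1.25 ± 0.11. The ligand gene TGFB1 was lower at -0.88 ± 0.15, so ligand genes ran in both directions. WNT and NOTCH pathway genes were higher in 10 and lower in 7 of 23 tested (73.9% called, beside 59.0% of all genes). The secreted WNT antagonist gene SFRP1 had signals of 10332, 11133 and 10783 units in SUM149PT, against 35.6, 8.34 and 57.9 units in SUM159PT (7.89 ± 0.24), and DKK3, another secreted protein gene of the Dickkopf family, had 34.1, 58.8 and 58.2 units in SUM149PT, against 7856, 8754 and 7489 units in SUM159PT (-6.94 ± 0.18). AXIN2, a feedback target of WNT signalling, was lower at -3.305 ± 0.27 (16.2 ± 12.4 units in SUM149PT and 288 ± 51.7 in SUM159PT), LGR4, a receptor for R-spondins, was higher by 3.11 ± 0.17, and NOTCH1 (0.06 ± 0.18) did not pass.

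Few genes of central carbon metabolism reached a 2-fold difference. Of 26 tested glycolysis and glucose uptake genes, 6 were higher, 8 lower and 12 did not pass, and 1 and 1 reached 2-fold. Calls made up 53.8% of them, beside 59.0% of all genes. LDHA, a lactate dehydrogenase subunit, had signals of 24479, 27644 and 23328 units in SUM149PT, against 24632, 30135 and 26002 units in SUM159PT. The arrays of the lines overlapped in LDHA level (-0.10 ± 0.12, adjusted p = 0.514). LDHB (0.06 ± 0.10), GAPDH (-0.08 ± 0.20), ENO1 (-0.09 ± 0.09), PGK1 (0.14 ± 0.07) and TPI1 (-0.08 ± 0.08) did not pass either. SLC2A1, the ubiquitous glucose transporter gene, was higher in SUM149PT by 0.43 ± 0.07, and SLC2A3, the high-affinity transporter gene, was lower at -2.59 ± 0.16 (128 ± 3.33 units in SUM149PT and 850.1 ± 57.4 in SUM159PT). PFKFB3, which makes the activator of phosphofructokinase, was higher by 1.215 ± 0.11. HK2 was lower at -0.86 ± 0.14 in the probe set used, but its 3 probe sets ran from -0.86 to 1.58, so its direction was not settled.

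Of 5 tested genes for members of the monocarboxylate transporter family and their partners, 2 were higher and 2 lower in RNA, and transport was not measured. SLC16A7, which encodes the high-affinity monocarboxylate transporter MCT2, had signals of 409, 214 and 196 units in SUM149PT, against 1493, 1088 and 1494 units in SUM159PT (-2.31 ± 0.24, adjusted p = 1.28e-08). Each SUM159PT array was above each SUM149PT array. SLC16A5, an orphan member of the family, was higher in SUM149PT by 3.25 ± 0.28. The chaperone gene BSG, which encodes basigin, was higher by 0.23 ± 0.07. That call was lost without SUM159PT array 3 (0.16) or with median centring (0.24). The related EMB, which encodes embigin, was lower at -0.43 ± 0.09. In pyruvate entry and the TCA cycle 5 were higher, 8 lower and 13 of 26 did not pass. The pyruvate dehydrogenase kinase genes differed one by one: PDK3 was higher by 2.98 ± 0.16 (744 ± 180.0 units in SUM149PT and 79.7 ± 16.6 in SUM159PT), PDK4 lower at -2.06 ± 0.23 (18.3 ± 12.9 units in SUM149PT and 121 ± 4.48 in SUM159PT), and PDK1 (0.14 ± 0.10) did not pass. MPC1, a subunit of the mitochondrial pyruvate carrier, was lower at -0.79 ± 0.08, citrate synthase CS at -0.83 ± 0.09 and pyruvate carboxylase PC at -1.57 ± 0.23. Of 19 mitochondrial biogenesis and respiratory chain genes 5 were higher (2 without SUM149PT array 2, 3 without SUM159PT array 3) and 4 lower, and none of them reached 2-fold. Shares called were 47.4% in this list and 50% in pyruvate entry and the TCA cycle, beside 59.0% of all genes.

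**Figure D3:**
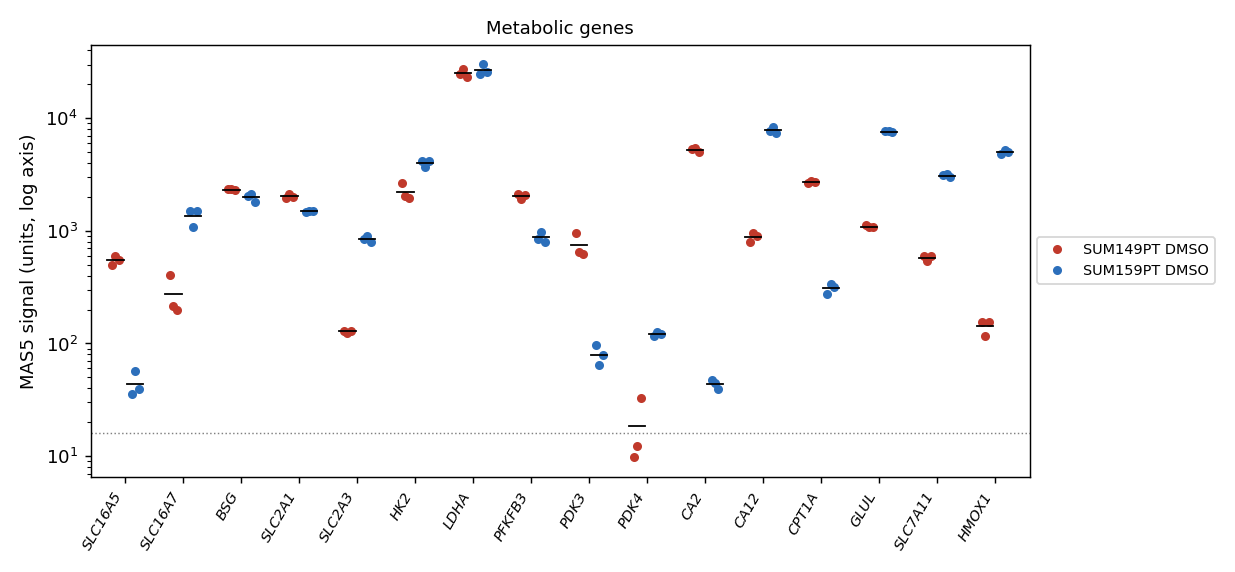
MAS5 signal (log axis) of 16 metabolic genes on the 3 SUM149PT arrays (red, left of each pair) and 3 SUM159PT arrays (blue, right), with line means as bars and the offset of 16 units dotted. LDHA overlaps between the lines, SLC16A7, SLC2A3, CA12, GLUL, SLC7A11 and HMOX1 lie lower on every SUM149PT array, and SLC16A5, PDK3, CA2 and CPT1A lie higher.

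Carbonic anhydrases, which buffer acid at the cell surface and in the cytosol, differed by isoform. CA2, a cytosolic enzyme gene, had signals of 5293, 5422 and 4996 units in SUM149PT, against 47.4, 44.7 and 39.1 units in SUM159PT (6.46 ± 0.11). CA12, a membrane-bound isoform gene, had 796, 952 and 896 units in SUM149PT, against 7777, 8280.1 and 7349 units in SUM159PT (-3.13 ± 0.08), so the isoforms ran in opposite directions. Of 19 tested hypoxia and pH genes 8 were higher and 9 lower, with AK4, an adenylate kinase gene, higher by 4.22 ± 0.10, EGLN3, an oxygen-sensing hydroxylase gene, lower at -2.06 ± 0.20, and HIF1A (-0.02 ± 0.09) not passing. TXNIP, which restrains glucose uptake, was lower at -0.78 ± 0.10 (2319 ± 96.2 units in SUM149PT and 4001 ± 166 in SUM159PT).

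In lipid metabolism 9 of 26 tested genes were higher and 12 lower. CPT1A, which admits fatty acids to mitochondria, was higher by 3.07 ± 0.14, PLIN2, a lipid droplet coat gene, by 4.42 ± 0.35, and the desaturase genes FADS2 and SCD by 2.83 ± 0.21 and 1.385 ± 0.08. FABP5, a fatty acid binding protein gene, and HMGCS1, of cholesterol synthesis, were lower at -1.66 ± 0.10 and -1.14 ± 0.11. Of 31 amino acid and one-carbon genes 13 were higher and 12 lower. PHGDH, the first enzyme of serine synthesis, was higher by 1.77 ± 0.12, as was KYNU, of tryptophan breakdown (22104 ± 1397 units in SUM149PT and 2212 ± 126 in SUM159PT, 3.31 ± 0.18). GLUL, which encodes glutamine synthetase, had signals of 1116, 1081 and 1075 units in SUM149PT, against 7647, 7674 and 7546 units in SUM159PT (-2.79 ± 0.09). The cystine transporter chain gene SLC7A11 was lower at -2.39 ± 0.10 while its partner SLC3A2 was higher by 1.49 ± 0.08. Of 25 tested NRF2 and glutathione genes, among them NFE2L2 and KEAP1 themselves, 10 were higher and 9 lower (76% called, beside 59.0% of all genes). HMOX1, which degrades haem, had 155, 115 and 154 units in SUM149PT, against 4795, 5211 and 5055 units in SUM159PT (-5.01 ± 0.14), SRXN1 and TXNRD1 were lower at -1.59 ± 0.13 and -0.81 ± 0.06, GSTM3 was higher by 4.43 ± 0.14, and NQO1 was lower at -0.37 ± 0.07. Among aldehyde dehydrogenase and stem cell genes 7 of 16 were higher and 2 lower, a share called of 56.2% beside 59.0% of all genes. ALDH1A3 and ALDH2, aldehyde-oxidising enzymes, were higher by 5.17 ± 0.12 and 5.95 ± 0.26, the transcription factor gene SOX9 by 3.67 ± 0.10, and CD44 was bright in both lines in the probe set used (0.04 ± 0.06, adjusted p = 0.651). The 11 probe sets of CD44 ran from 0.04 to 2.72, and their mean was higher in SUM149PT by 1.48.

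Cell division genes differed by small amounts. Of 26 tested, 7 were higher, 13 lower and 6 did not pass, with 1 and 2 at 2-fold and a median of -0.15. Calls made up 76.9% of them, beside 59.0% of all genes. MKI67, the proliferation antigen gene, had signals of 1706, 1171 and 1117 units in SUM149PT, against 1452, 1406 and 1459 units in SUM159PT (-0.14 ± 0.12, adjusted p = 0.341), and the arrays of the lines overlapped. Without SUM149PT array 1 it passed (-0.33). The replicative helicase genes MCM5 and MCM6 were lower at -1.09 ± 0.12 and -0.93 ± 0.07 and the mitotic cyclin gene CCNB2 at -1.08 ± 0.06. AURKB, a kinase of the chromosomal passenger complex, was the member called at 2-fold higher (3845 ± 215 units in SUM149PT and 979 ± 113 in SUM159PT, 1.96 ± 0.11). Of 13 tested D cyclin and CDK inhibitor genes 4 were higher and 5 lower (69.2% called, beside 59.0% of all genes). CCND2 and CCND1 were lower at -2.775 ± 0.31 and -1.16 ± 0.07, the tumour suppressor gene RB1 at -1.52 ± 0.16 (885 ± 105 units in SUM149PT and 2555 ± 156 in SUM159PT), and CDKN1A, which encodes p21, was higher by 1.34 ± 0.16. CDKN2A was dim in both lines (91.3 ± 15.6 units in SUM149PT and 73.7 ± 20.5 in SUM159PT) and did not pass. Of 11 p53 target and DNA repair genes 1 was higher and 5 lower, a share called of 54.5% beside 59.0% of all genes. BRCA1, a gene of homologous recombination, had signals of 722, 575 and 609 units in SUM149PT, against 1882, 2186 and 2077 units in SUM159PT (-1.67 ± 0.12), and GDF15, a p53-responsive secreted factor gene, was lower at -1.998 ± 0.33.

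Cancer testis antigen genes are normally limited to germ cells. Of 16 on the array, 8 were under the filter, and the other 8 were lower in SUM149PT, 7 by 2-fold or more. Those dim in SUM149PT passed the filter through SUM159PT, where they are high, so their direction supports nothing. MAGEA6 had signals of 9.66, 13.8 and 3.97 units in SUM149PT, against 9953, 10379 and 10324 units in SUM159PT (-8.69 ± 0.21). MAGEA12 and MAGEC2 differed at -8.33 ± 0.25 and -7.47 ± 0.21. HS578T averaged 10937 units for MAGEA6 and 53.3 for MAGEC2. Members of this family are close copies, so their probe sets may share signal, and the list had 25 entries, most of which were not tested. Of 12 tested HOX genes 4 were higher (2 without SUM149PT array 1) and 3 lower, a share called of 58.3% beside 59.0% of all genes. By 2-fold or more 0 were higher and 2 lower, among them HOXC6 at -1.14 ± 0.17.

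Several of the genes furthest below SUM159PT were on no list. GJA1, which encodes the gap junction protein connexin-43, had signals of 16.5, 4.9 and 16.6 units in SUM149PT, against 9561, 10331 and 9898 units in SUM159PT (-8.47 ± 0.17). NPTX2, a neuronal pentraxin gene, had 5.14, 10.03 and 24.9 units in SUM149PT, against 9519, 9881 and 9056 units in SUM159PT (-8.39 ± 0.30), and SRGN, the proteoglycan of secretory granules, differed at -7.86 ± 0.22. ENPP2, which encodes the lysophospholipase autotaxin, TFPI, an inhibitor of tissue factor, and ABI3BP, a matrix protein gene, were lower at -7.06 ± 0.19, -6.97 ± 0.22 and -6.97 ± 0.16. F3, the tissue factor gene that TFPI opposes and a member of the YAP list, was higher by 1.60 ± 0.13. Protease TMPRSS15, receptor ADGRF5 and WDR72 were lower at -8.175 ± 0.24, -7.40 ± 0.28 and -7.21 ± 0.16. The largest rises in SUM149PT included STEAP4, a metalloreductase gene (10481, 11921 and 11370.0 units in SUM149PT, against 19.2, 12.9 and 9.51 units in SUM159PT, 8.57 ± 0.25), G0S2, an inhibitor of fat breakdown (7.91 ± 0.18), NEFL, a neurofilament gene (7.84 ± 0.14), RARRES1, a retinoid-responsive gene (7.72 ± 0.20), and COXFA4L3 (7.80 ± 0.29). NPTX2 and ADGRF5 signals were near the bottom of the scale in HS578T (4.27 and 23.03 units), while GJA1 and SRGN were bright there (13119 and 13467).

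**Figure D4:**
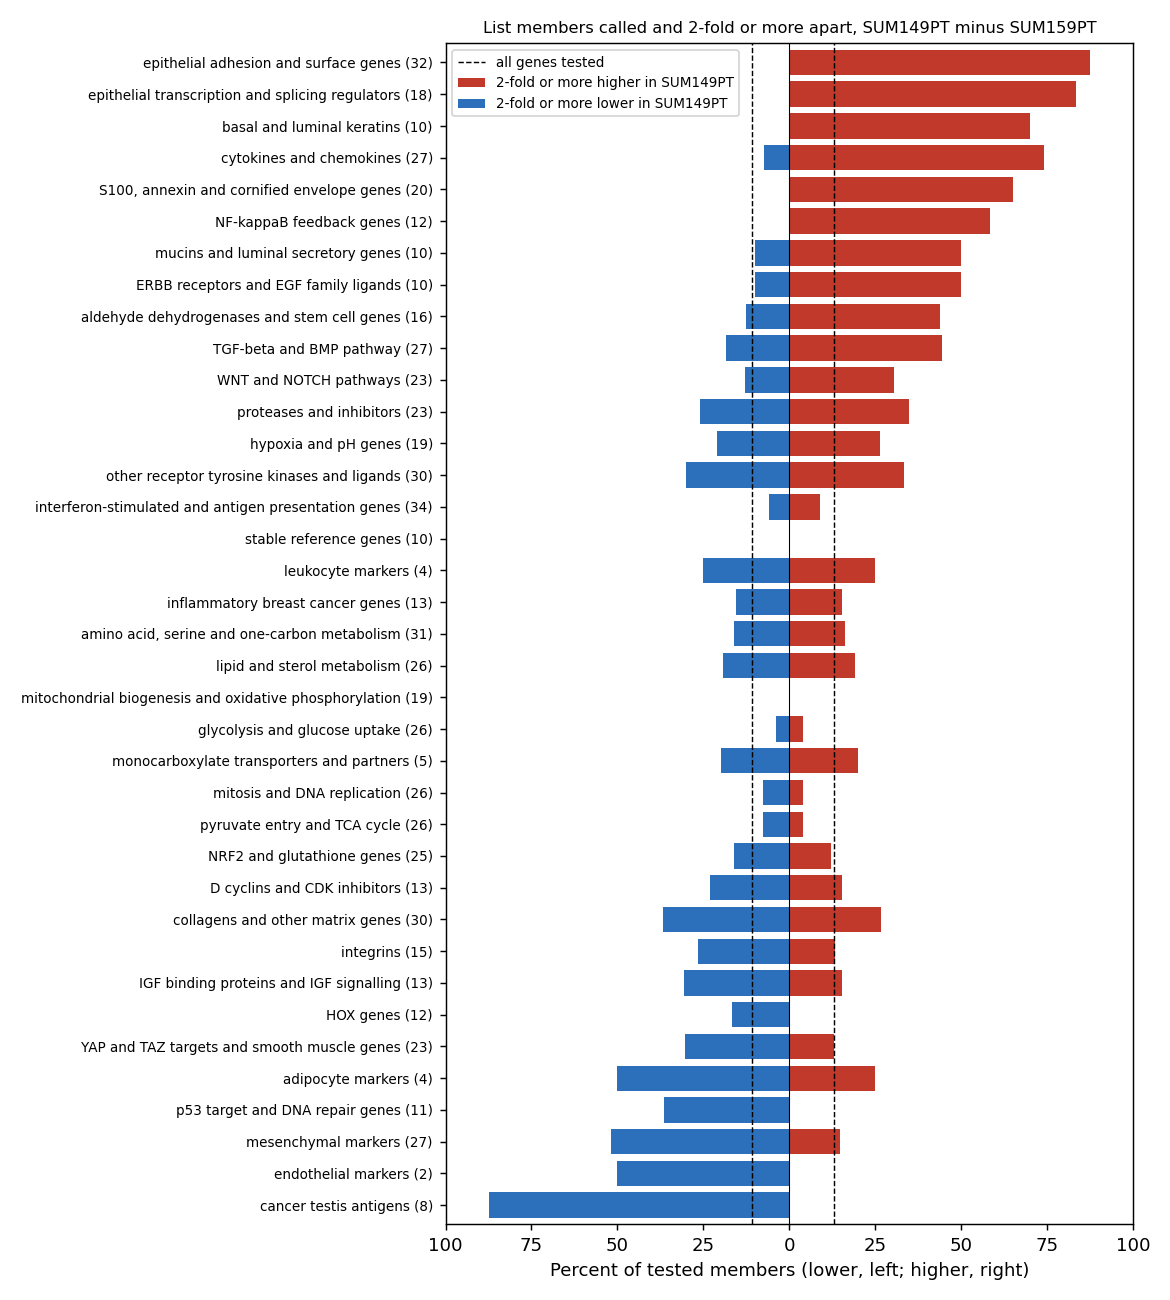
Percent of the tested members of each list (number in parentheses) that were called and at least 2-fold higher in SUM149PT (red, right) or at least 2-fold lower (blue, left), with the shares over all genes tested (13.0% and 10.9%) dashed. Epithelial adhesion genes, their regulators, keratins and cytokines reach furthest right, mesenchymal markers and cancer testis antigens furthest left among lists of 5 or more members, and glycolysis and respiratory chain lists stay within the dashed lines.

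The same lines were also compared on the AZD3965 arrays, which share no array with the DMSO comparison but come from the same lines and study. There 8591 genes (60.6%) passed, 4493 (31.7%) higher and 4098 (28.9%) lower. Of the 8370 genes called under DMSO, 7563 (90.4%) were called in the same direction under AZD3965 and 5 (0.0597%) in the opposite direction. CDH1 differed by 8.54 ± 0.15 under AZD3965, with 8167, 8271 and 8429.6 units in SUM149PT, against 2.57, 17.2 and 1.93 units in SUM159PT. CXCL1 differed by 7.82 ± 0.14, ZEB1 by -5.38 ± 0.24, CDH11 by 3.45 ± 0.10, SLC16A7 by -2.37 ± 0.24 and HMOX1 by -4.90 ± 0.14. All 31 epithelial adhesion genes called under DMSO, and 22 of the 23 mesenchymal markers called, were called in the same direction. When the line difference itself was tested between DMSO and AZD3965 (limma, 14183 genes), 0 genes passed the adjusted threshold and 635 had an unadjusted p under 0.05.

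**Figure D5:**
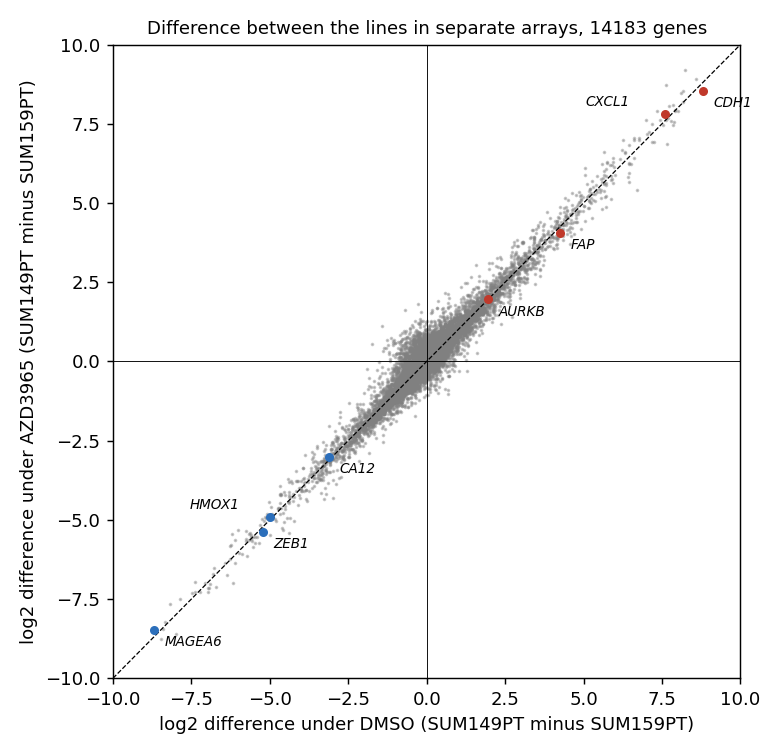
Log2 difference between the lines under DMSO (x axis) and under AZD3965 (y axis) for 14183 genes (grey points), with 8 genes named and the line of equality dashed. The named genes lie close to equality at both ends of the scale.

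Markers of cells that a culture of either line should not hold were mostly dim. Of 12 leukocyte markers 10 were on the array, and their summed signal ran from 513 to 570 units in SUM149PT and from 264 to 492 in SUM159PT. PTPRC, the pan-leukocyte surface marker, averaged 11.4 units in SUM149PT and 23.7 in SUM159PT, and CD14, a monocyte surface receptor gene, was higher in SUM149PT, with 406, 328 and 432 units in SUM149PT, against 22.8, 23.5 and 20.4 units in SUM159PT (3.40 ± 0.28). CD3E (12.2 ± 2.07 units in SUM149PT and 75.9 ± 44.5 in SUM159PT) and ITGAM (39.5 ± 6.54 units in SUM149PT and 80.8 ± 25.7 in SUM159PT) were called lower, and CD3E was under the filter without SUM159PT array 3. The 10 endothelial markers summed to 197 to 356 units in SUM149PT and 411 to 465 in SUM159PT, and ERG was lower in SUM149PT (13.6 ± 6.26 units in SUM149PT and 155 ± 12.4 in SUM159PT). The 8 adipocyte markers summed to 1265 to 1407 units in SUM149PT and 647 to 703 in SUM159PT, of which LPL was called higher (1104 ± 60.8 units in SUM149PT and 148 ± 33.1 in SUM159PT) and FABP4 (14.6 ± 16.9 units in SUM149PT and 134 ± 33.9 in SUM159PT) and CIDEC (125 ± 28.9 units in SUM149PT and 291 ± 15.4 in SUM159PT) were called lower, while ADIPOQ averaged 2.79 units in SUM149PT and 8.04 in SUM159PT. CD14 was higher in the same line as most cytokine genes, and its part in that result was not tested. Of 10 tested reference genes 2 were higher and 2 lower, none by 2-fold, and ACTB differed at -0.12 ± 0.13 (adjusted p = 0.482) and PPIA by 0.01 ± 0.12.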

How the data were processed

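The deposited values are linear intensity (MAS5 signals, per the submitters' processing notes, version not given in the sources used here) of 54675 probe sets on 24 Affymetrix arrays made from 6 µg of total RNA each, per the labels. Their trimmed mean (2% left out at each end) was 500.1 on every array, and no further normalization was applied. In the probe annotation, a single gene symbol was given for 41097 probe sets, several for 1801 and none for 11777, and 41043 probe sets were looked up by gene ID for current symbols. For each of 19775 genes the probe set of highest mean over the 6 DMSO arrays, each line weighing equally, was kept. Genes were tested if that mean of log2(signal + 16) reached the 40th percentile of all probe sets (5.58, about 32.0 units). The filter was set on these 6 arrays because SUM149PT has more arrays than SUM159PT in the series. One model of 8 group means over 24 arrays was fitted with limma 3.58.1 in R 4.3.3 (16 residual and 6.52 prior degrees of freedom, mean-variance trend, two-sided, Benjamini-Hochberg), and tested on simulated data.

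The genes and lists were chosen with earlier results of these data known. Named genes were list members or the 15 with the largest difference each way, not overlapping and with at least 200 units in the brighter line, and the 3 windows each way of 20 neighbouring genes with the most extreme median. MIR200CHG was named after its values were seen. The gene that the inhibitor targets is not reported here. Alternatives covered arrays fitted, normalization, offset, filter, probe set choice, trend, pairing and each replicate left out. The small number of arrays, 3 a group, bounds the precision.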

Additional observations from a re-analysis of the deposited data

How the results depend on the processing

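The count of 8370 genes differing under DMSO stayed within 1.5 times under all 20 alternatives. It was 8532 with only the 6 DMSO arrays, 8460 after quantile normalization, 7790 after median centring, 8152 and 8512 with offsets of 1 and 64, 8549 with no filter and 7340 with the 60th percentile as filter. With the mean of all probe sets of a gene it was 7582, of which 6853 were among the original calls in the same direction. Leaving out 1 DMSO array gave 7823 to 7950 calls, and without the scramble shRNA array whose control ratios stood apart it was 8660. The titles number replicates 1 to 3 in both lines, and same-numbered arrays of the lines deviated together at r = 0.155, 0.0688 and 0.229. For the same SUM149PT arrays the highest r with a differently numbered SUM159PT array was 0.0696, -0.00675 and -0.132. Same-numbered arrays were thus the closer ones in each case, by small correlations. Whether the numbers mark a shared run was not tested, and the main fit left the arrays unpaired. With the replicate number as a block 8965 genes passed. The AZD3965 comparison gave 8113 to 8371 calls when 1 array was left out and 8159 after median centring, of which 3542 were higher in SUM149PT and 4617 lower.

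Of 289 genes named here 260 were called, and 248 of these stayed called, in either direction, under every alternative that tested them. HK2 and RCHY1, which turned direction, are among the 248. HK2 turned to 0.44 and RCHY1 to -0.32 with the mean of all probe sets, and ANKRD17, named as the end of a window, to -0.23 with the probe set of highest mean over 24 arrays, since their probe sets disagree. With the mean of all probe sets the calls of ANKRD17 (0.09), EMB (-0.34), ERBB2 (-0.29), ITGAM (-0.57), PERP (0.10), RHOC (0.07), TXNRD1 (-0.28) and XBP1 (-0.34) were lost. With that setting B2M (-0.52), PDK1 (0.34), PGK1 (0.24) and S100A6 (-0.69) passed. After median centring the calls of BSG, FN1, RHOC and S100A10 were lost, so these small differences depend on the normalization. KLF5 (0.39) passed with the replicate block. Of 1480 list counts recomputed 37 moved by more than 1.5 times, 3 of them by more than 3 genes.

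Signals under about 16 units are set by the offset, which limits the size of the differences of genes dark in one line.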

Other observations

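Differences also gathered along chromosomes. Gene order was taken from RefSeq, and windows of 20 neighbouring tested genes were ranked by their median difference, with no test. On chromosome 5, of 645 tested genes 94 were higher and 317 lower in SUM149PT (22.9% of calls higher, against 50.2% over all genes), and all of the 3 lowest windows lay there. The window running from SEMA5A to LINC02241 had a median of -2.11 with 16 genes lower and 1 higher. In it TRIO, a guanine exchange factor gene, differed at -2.66 ± 0.14, ANKH, a pyrophosphate transporter gene, at -3.21 ± 0.10, the unconventional myosin gene MYO10 at -1.90 ± 0.09 and the chaperonin subunit gene CCT5 at -1.25 ± 0.10. A further window from EGFLAM to ANXA2R-AS1 had a median of -1.95 and held LIFR, the receptor of the cytokine LIF (-5.75 ± 0.19), RICTOR, a subunit of an mTOR complex (-0.99 ± 0.14), DAB2, an endocytic adaptor (-2.51 ± 0.21), and PRKAA1, a catalytic subunit of AMP kinase (-1.64 ± 0.19). The window from CEP72 to ICE1 had a median of -1.64, with BRD9 at -2.13 ± 0.11, TRIP13 at -1.71 ± 0.07 and CLPTM1L at -2.25 ± 0.08. LIF, the ligand, was higher in SUM149PT by 4.63 ± 0.28 while LIFR was lower.

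In the other direction, chromosome 20 had 182 genes higher and 56 lower of 398 (76.5% of calls higher), chromosome 21 had 57 and 23 of 158 (71.2%) and chromosome 11 had 321 and 159 of 825 (66.9%). The window of highest median (2.26, 15 genes higher and 1 lower) ran from ANKRD17 to ODAPH on chromosome 4 and held the CXCL cluster with EREG and BTC. The platelet chemokine genes PPBP and PF4 in it, which were on no list but lie in this window, had signals of 2686, 2982 and 3215 units in SUM149PT, against 2.28, 6.55 and 15.8 units in SUM159PT (6.98 ± 0.21), and 1708, 1926 and 1901 units in SUM149PT, against 57.6, 39.6 and 18.02 units in SUM159PT (5.16 ± 0.32). RCHY1, a ubiquitin ligase gene of the same window, differed by 0.44 ± 0.07 in the probe set used, while its 4 probe sets ran from -1.07 to 0.44. A window on chromosome 9 from MPDZ to FOCAD had a median of 1.62, with the transcription factor gene NFIB at 1.63 ± 0.12 and PSIP1, a chromatin-bound coactivator gene, at 2.30 ± 0.11. A window on chromosome 17 from CHD3 to MYH10 had a median of 1.45 with 16 genes higher and 1 lower, and held AURKB, described above, beside NDEL1 (1.31 ± 0.10) and MYH10 (2.09 ± 0.11).

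Of 4652 called genes with more than 1 probe set past the filter, 254 had another probe set called in the opposite direction. Such genes named here are FN1, HK2 and RCHY1, and for these a single difference does not describe the gene.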
